A study of Mus musculus with 30 samples.

Results

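Small nucleolar RNA (snoRNA) host genes are genes whose introns carry snoRNAs. The 8 non-coding host genes described here are Gas5, Snhg1, Snhg3, Snhg6, Snhg8, Snhg12, Zfas1 and Epb41l4aos, taken by name from the 55487 genes counted, and all 8 were among the 15907 genes that passed the filter on low counts. They were chosen by name, with earlier results from these libraries known, so their values are a description and no independent evidence. RNA-sequencing was performed on C2C12 myotubes, which form by fusion of a mouse myoblast cell line labelled as wild type. Myotubes were differentiated for 4 days in medium with 2% horse serum and then kept for 4 days in 1 of 5 conditions, 8 days in all. The conditions were 2% horse serum (2% HS), serum deprivation without other agents (SD), and serum deprivation with 100 nM metformin (MET), with 500 nM leucine (LEU) or with both agents (MET+LEU). Each group had 6 libraries, and the 3 treated groups were all serum deprived and were all compared with the same SD libraries. The samples are cultures of 1 cell line, and the labels do not say whether the 6 cultures of a group were grown separately, so p-values measure the spread between these cultures.

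Many snoRNAs, though not all, guide chemical modification of ribosomal RNA. Box C/D snoRNAs of this kind guide methylation of the ribose, and box H/ACA snoRNAs of this kind guide conversion of uridine to pseudouridine. After splicing, the intron is trimmed to the snoRNA, and the joined exons of a non-coding host are exported and are known to be broken down quickly by nonsense-mediated decay when ribosomes engage them. Many hosts begin, as ribosomal protein mRNAs do, with a cytosine followed by a run of pyrimidines, the 5′ terminal oligopyrimidine (TOP) element, which ties translation of these RNAs to growth signals through mTORC1. Gas5 takes its name from its accumulation in growth-arrested cells, where low translation spares it from decay. The question here was how the hosts behaved in deprived and treated myotubes beside the ribosomal protein genes.

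The annotated first bases of some transcripts of the hosts carry such a run, and most do not. In the sequences below, from GENCODE M21 transcripts on GRCm38, capitals mark the initial unbroken run of C and T, and the transcript with the longest such run behind a first C is shown for each gene. Several of these starts lie inside the gene rather than at its outermost end, and those shown for Snhg1 and Zfas1 and the second of Gas5 belong to transcripts with a retained intron. For Gas5 a second start, shared by 4 of its 25 transcripts, is also shown.
Gas5 (chr1:161034929-161034953, + strand): CCCCTCagcctgtactcctcaggga
Gas5 (chr1:161035166-161035190, + strand): CTTTCggagctgtgcggcattctga
Snhg1 (chr19:8723487-8723511, + strand): CTCatttttccttgttcggggtaag
Snhg3 (chr4:132353609-132353633, - strand): CTCTCTaggcgtcgctctcttggtg
Snhg6 (chr1:9944094-9944118, - strand): CTTTCTCggcagcgccgtagagcgc
Snhg8 (chr3:123508380-123508404, - strand): CCCTCgcgcgcaggctcttgggaga
Snhg12 (chr4:132308676-132308700, + strand): CCTTTCTCgcttcatccgcggtccc
Zfas1 (chr2:167063221-167063245, + strand): CCTTTCgttccggcggctcctagag
Shown for comparison are 3 ribosomal protein genes that rose in MET+LEU vs. SD and have such a start, with the same marking. The Rps12 start belongs to a transcript with a retained intron, the only 1 of its 9 transcripts with such a start.
Rps12 (chr10:23786488-23786512, - strand): CCTTCaccccgttcatgggtgagaa
Rps24 (chr14:24490718-24490742, + strand): CTCTTTTCCTCCTCTCCagctccgg
Rps9 (chr7:3704038-3704062, + strand): CTCTTTgtctcgggcctgagttcgt

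A transcript with a C followed by at least 4 further C or T bases at its annotated start was found for 6 of the 8 hosts (75.0%). The exceptions were Snhg1, whose longest run was 3 bases, and Epb41l4aos, which had none. The same start was found for 36 of 86 tested ribosomal protein genes (41.9%) and for 9.1% of all tested genes that have transcripts in the annotation. Per transcript, the shares were 12 of 73 for the hosts (16.4%), 10.2% for the ribosomal protein genes and 2.1% for all tested genes. Genes with more annotated transcripts have more chances of a match, and annotated starts are not starts measured in these myotubes.

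The hosts are small genes on 6 chromosomes (GRCm38). Gas5 lies at chr1:161034422-161038539 and Snhg6 at chr1:9941959-9944118. Snhg3 lies at chr4:132348014-132353686 and Snhg12 at chr4:132308623-132311024. Snhg1 lies at chr19:8723475-8726443, Snhg8 at chr3:123507552-123508404, Zfas1 at chr2:167062934-167065862 and Epb41l4aos at chr18:33794892-33795986. In the annotation, transcripts with retained introns extend the exons of Snhg1, Snhg8, Snhg12 and Zfas1 over the whole gene (100%) and those of Gas5 over 91.3% of it. The exons covered 53.1% of Snhg6, 39.3% of Epb41l4aos and 17.4% of Snhg3. If counting used these exons, the counts of the first 5 hosts hold RNA from introns as well as spliced RNA, and the counts cannot tell them apart. Exons of Zfas1 overlap 82 bases of Znfx1 on the opposite strand, and exons of Snhg3 overlap 135 bases of Rcc1 on the same strand.

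The snoRNA genes inside the hosts were mostly at 0. All 10 in Gas5, all 8 in Snhg1, all 5 in Snhg12 and Snora24 in Snhg8 had a count of 0 in all 30 libraries, as did 3 of 4 small RNA genes in Zfas1, and all of these lie within exons of their host. A count of 0 in a single library allows up to 3 counts from counting error alone, and 0 in all 30 libraries allows fewer per library. How reads lying in both a host exon and a small RNA gene were counted is not given. The counts of 0 therefore do not show that these snoRNAs were absent. Snord87 in Snhg6 (mean 5.2 counts) and Gm23639 in Epb41l4aos (mean 3.1 counts) lie outside host exons. Gm23201 in Zfas1 had a mean of 45.3 counts although it lies within a host exon. The largest counts belonged to Snora73a (mean 296 counts) and Snora73b (mean 506 counts) in Snhg3, of which the first overlaps host exons by 159 bases and the second by 0.

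The libraries held 12784960 to 19604103 counts. Counts per library ranged from 831 to 1318 for Gas5, 372 to 689 for Zfas1, 355 to 589 for Snhg1, 182 to 322 for Snhg12, 138 to 292 for Snhg3, 108 to 198 for Snhg6, 76 to 210 for Snhg8 and 32 to 70 for Epb41l4aos, so the last of these was measured with the least precision. MET+LEU replicate 6 stood apart, with 5.85% of its counts on nuclear ribosomal RNA genes and 7.64% on mitochondrial ribosomal RNA genes. Nuclear ribosomal RNA took at most 1.06% in each library of the other 4 groups. Mitochondrial ribosomal RNA took 0.281 to 0.367% of counts in SD, and with treatment 0.244 to 0.705% (MET), 0.501 to 0.710% (LEU) and at least 0.649% (MET+LEU). Markers of myotubes were high in every library, with Myog between 895 and 1156 CPM. Of 6 markers of other cells, Adgre1 was at 0 in every library, Epcam and Ptprc reached 1 and 2 counts, Pecam1 and Cdh5 7 counts each, and Krt14, the only one tested, 18 counts (0.188 to 1.02 CPM).

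Levels are given as counts scaled to a common library size (CPM) with the trimmed mean of M-values (TMM), with n = 6 libraries per group. Fold changes are log2 values from edgeR's quasi-likelihood test over all 30 libraries, and a gene was called where its p, adjusted by Benjamini-Hochberg over 15907 genes, was under 0.05. Per kilobase of annotated exon, which takes in introns for 5 hosts and not for Snhg3, Gas5 had the highest value in 2% HS, at 17.6 ± 0.44 CPM per kilobase (mean ± standard deviation). It was followed by Snhg3 at 14.8 ± 0.72, Zfas1 at 11.5 ± 0.88, Snhg1 at 9.57 ± 0.71, Snhg6 at 8.11 ± 0.62, Snhg8 at 7.30 ± 0.78, Epb41l4aos at 7.18 ± 1.1 and Snhg12 at 6.17 ± 0.38 CPM per kilobase. The libraries of Gas5 did not overlap with those of Snhg3, nor those of Snhg3 with those of Zfas1, whereas from Zfas1 downward each host overlapped with the next. This order depends on the exon lengths used: without division by length, Zfas1 (33.8 CPM) and Snhg1 (28.4 CPM) lay above Snhg3 (14.6 CPM).

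**Figure D1:**
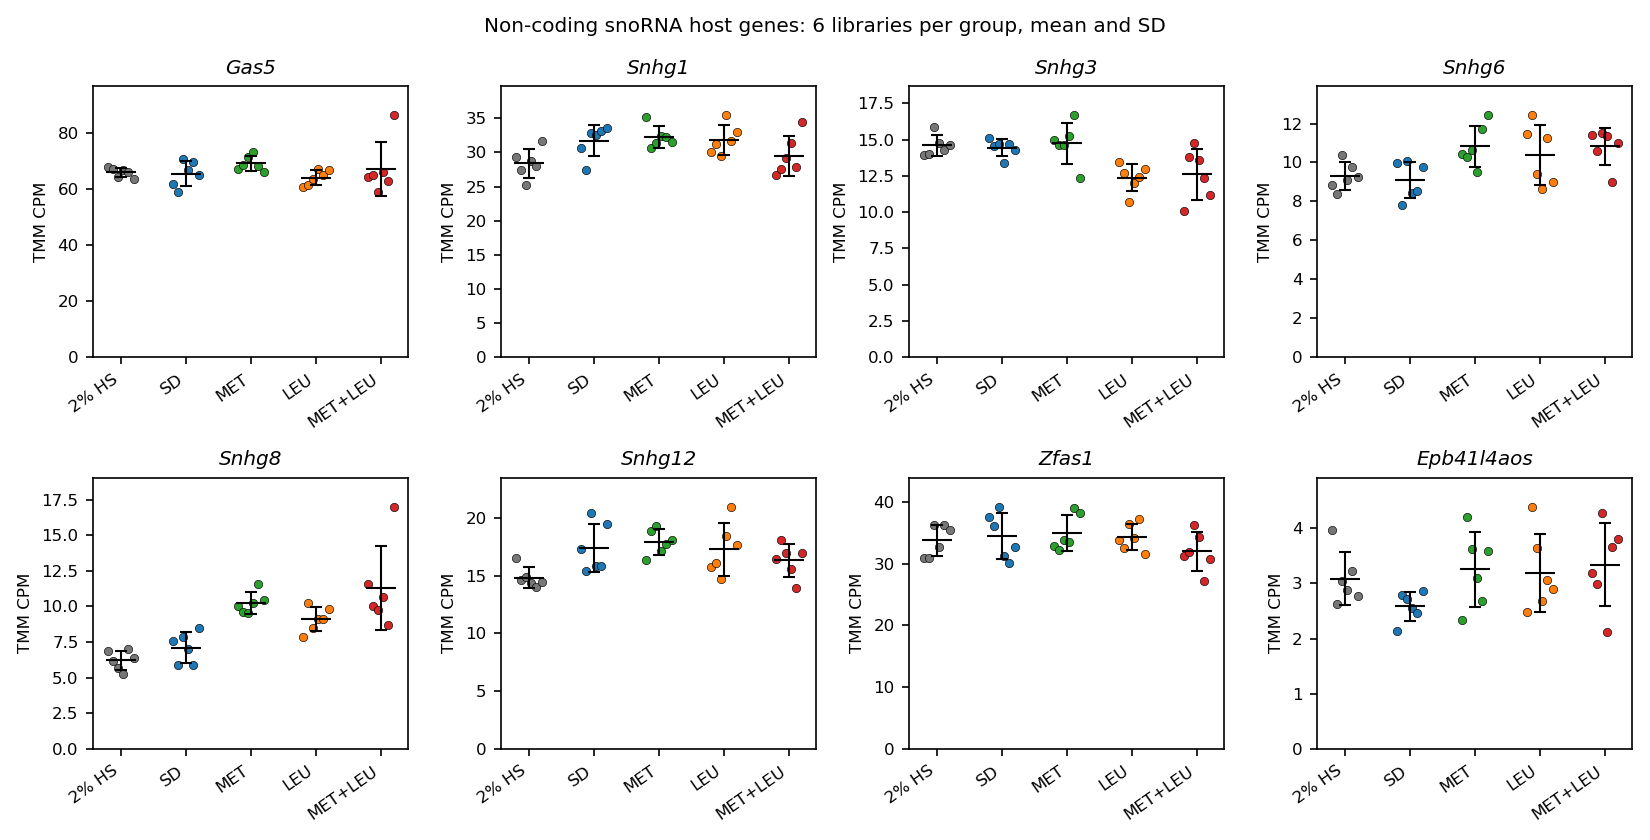
TMM CPM of each host gene in the 30 libraries, by group, with the mean and standard deviation of 6 libraries as bars. Snhg8 is higher in every MET and MET+LEU library than in every SD library, and Gas5 is level across groups apart from MET+LEU replicate 6 at 86.5 CPM.

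Among the hosts of box C/D snoRNAs, Gas5 was level across the 5 conditions. Its lowest, median and highest CPM were 63.6, 66.4 and 67.8 in 2% HS and 59.1, 65.9 and 70.6 in SD. They were 66.3, 68.5 and 73.4 in MET, 60.7, 64.4 and 67.1 in LEU, and 59.2, 64.7 and 86.5 in MET+LEU. The groups overlapped in every comparison, and the 86.5 belonged to replicate 6. In SD vs. 2% HS the log2 fold change of Gas5 was -0.01 (95% interval -0.12 to 0.10, adjusted p = 0.907, edgeR), which is a fold of between 0.92 and 1.07. With both agents vs. SD the value was 0.04 (-0.07 to 0.15, adjusted p = 0.690), and without replicate 6 it was -0.05 (adjusted p = 0.545). In MET vs. SD it was 0.08 (-0.03 to 0.19) and in LEU vs. SD -0.03 (-0.14 to 0.08). No comparison placed Gas5 past the threshold, and its highest upper bound in the 3 treated groups vs. SD was 0.19. A difference between Gas5 and another host was not tested.

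Snhg1, which carries a set of box C/D snoRNAs, rose slightly with serum deprivation. It was at 28.4 ± 2.10 CPM in 2% HS and 31.7 ± 2.31 CPM in SD, with 4 of 6 SD libraries above all 2% HS libraries. The log2 fold change was 0.16 (95% interval 0.04 to 0.28, adjusted p = 0.0464, edgeR). The groups overlapped, since SD replicate 2 was at 27.5 CPM and 2% HS ranged up to 31.6. The call lies at the threshold and was lost in 22 of 38 alternative settings, with adjusted p up to 0.149. In MET, LEU and MET+LEU the means were 32.2, 31.8 and 29.5 CPM, and no difference from SD passed the threshold.

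Zfas1, which lies antisense to the start of Znfx1 and carries Snord12, did not pass the threshold in any comparison. Its mean was 33.8 ± 2.58 CPM in 2% HS and 34.6 ± 3.70 CPM in SD. The treated groups had 34.99 ± 2.93 (MET), 34.4 ± 2.17 (LEU) and 32.0 ± 3.12 CPM (MET+LEU). The largest difference from SD was a log2 fold change of -0.11 in MET+LEU (-0.24 to 0.02, adjusted p = 0.253, edgeR). Snhg6, the host of Snord87, was at 9.29 ± 0.71 CPM in 2% HS and 9.10 ± 0.95 CPM in SD. Means with treatment were 10.8 ± 1.05 (MET), 10.4 ± 1.55 (LEU) and 10.8 ± 0.95 CPM (MET+LEU). Of 6 libraries, 5 in MET and 5 in MET+LEU were above all SD libraries. The log2 fold change vs. SD was 0.25 in MET (0.06 to 0.44, adjusted p = 0.325) and 0.25 in MET+LEU (0.06 to 0.44, adjusted p = 0.0549), neither past the threshold. In MET+LEU vs. SD, DESeq2 placed Snhg6 past it (adjusted p = 0.0427), as did edgeR without MET+LEU replicate 5 (adjusted p = 0.0305).

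Among the hosts of box H/ACA snoRNAs, Snhg8, the host of Snora24, had the clearest pattern. Its lowest, median and highest CPM were 5.26, 6.28 and 7.003 in 2% HS and 5.85, 7.27 and 8.49 in SD. They were 9.52, 10.1 and 11.6 in MET, 7.87, 9.10 and 10.2 in LEU, and 8.71, 10.4 and 17.01 in MET+LEU. Every MET and every MET+LEU library was above every SD library, 4 of 6 LEU libraries were, and SD overlapped with 2% HS. Of the 8 hosts, 1 was higher without overlap in MET vs. SD, beside 0.346% of all tested genes, 0 in LEU vs. SD beside 0.786%, and 1 in MET+LEU vs. SD beside 3.41%. With deprivation, 0 hosts were higher without overlap beside 6.17%.

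In MET vs. SD, Snhg8 rose by a log2 fold change of 0.53 (standard error 0.11, 95% interval 0.29 to 0.76, adjusted p = 0.0332, edgeR), or 1.44-fold. With both agents it rose by 0.66 (standard error 0.11, 0.43 to 0.89, adjusted p = 5.27e-05), or 1.58-fold vs. SD, and in MET+LEU vs. 2% HS by 0.86 (0.62 to 1.09, adjusted p = 5.03e-08). In LEU vs. SD it was 0.36 (0.12 to 0.59, adjusted p = 0.181), and in SD vs. 2% HS it was 0.20 (-0.05 to 0.44, adjusted p = 0.234). The interaction of metformin and leucine was -0.22 (-0.55 to 0.10, adjusted p = 0.727). The log2 fold change of MET+LEU vs. MET was 0.13 (-0.09 to 0.35, adjusted p = 0.509) and that of MET+LEU vs. LEU 0.30 (0.08 to 0.52, adjusted p = 0.0925), and neither passed the threshold.

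MET+LEU replicate 6 held the highest Snhg8 value. Without it the log2 fold change with both agents vs. SD was 0.51 (adjusted p = 0.000226, edgeR), in MET vs. SD 0.53 (adjusted p = 0.0012) and in LEU vs. SD 0.36 (adjusted p = 0.0379), so that the leucine comparison also passed. The MET call was lost, with adjusted p up to 0.133, when any of SD replicates 2 and 5 or MET replicates 1, 3, 4, 5 and 6 was left out. The MET+LEU call held in all 38 alternative settings. The share of mitochondrial ribosomal RNA was higher in most treated libraries than in SD, and its part in the result was not tested.

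Snhg12, which carries Snora44, Snora61 and Snora16a and the box C/D RNA Snord99, rose with serum deprivation. It was at 14.8 ± 0.90 CPM in 2% HS, with libraries from 14.01 to 16.6, and at 17.4 ± 2.10 CPM in SD, with libraries from 15.4 to 20.4. The log2 fold change was 0.23 (0.07 to 0.39, adjusted p = 0.0249, edgeR), and 3 of 6 SD libraries were above all 2% HS libraries. It was lost when 2% HS replicate 4 or 5 or SD replicate 3 or 6 was left out, with adjusted p up to 0.108. Means with treatment were 17.9 (MET), 17.3 (LEU) and 16.3 CPM (MET+LEU), with no difference from SD past the threshold. Epb41l4aos, which is antisense to the region upstream of Epb41l4a, was at 3.09 ± 0.48 CPM in 2% HS and 2.59 ± 0.27 CPM in SD, and with treatment at 3.25 ± 0.69 (MET), 3.19 ± 0.71 (LEU) and 3.34 ± 0.75 CPM (MET+LEU). Its intervals were the widest of the hosts, such as 0.02 to 0.69 around a log2 fold change of 0.36 in MET+LEU vs. SD (adjusted p = 0.129, edgeR, and 0.0458 without MET+LEU replicate 4).

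Snhg3, the host of Snora73a and Snora73b, had its lowest means in the 2 groups with leucine, at 12.4 ± 0.94 CPM in LEU and 12.6 ± 1.76 in MET+LEU against 14.5 ± 0.60 in SD. Its lowest, median and highest CPM were 13.95, 14.5 and 15.9 in 2% HS and 13.4, 14.6 and 15.1 in SD. They were 12.4, 14.8 and 16.7 in MET, 10.7, 12.6 and 13.5 in LEU, and 10.1, 12.98 and 14.7 in MET+LEU. Of 6 LEU libraries, 5 were below all SD libraries. The log2 fold change was -0.22 in LEU vs. SD (-0.38 to -0.06, adjusted p = 0.252, edgeR) and -0.19 in MET+LEU vs. SD (-0.35 to -0.03, adjusted p = 0.0840), and neither passed the threshold. Without MET+LEU replicate 2 or 3 the second did (adjusted p down to 0.0325). In MET+LEU vs. 2% HS it fell by 0.21 on the log2 scale (-0.37 to -0.05, adjusted p = 0.0309), and without MET+LEU replicate 6 that call was lost (-0.19, adjusted p = 0.0614), as it was without MET+LEU replicate 1 or 2% HS replicate 3. Rcc1, which shares exon bases with Snhg3, had a log2 fold change of -0.22 in MET+LEU vs. SD (adjusted p = 0.0512).

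The snoRNAs of Snhg3 are shown because they are the ones with the largest counts inside a host. Snora73a and Snora73b are 205 bases each and the same at 198 positions (96.6%), with 56 bases as the longest stretch without a difference. Reads of up to 56 bases can miss every difference and then cannot be assigned to either. Longer reads that lie inside these RNAs span a difference, and the read length stated in the paper, before trimming, is longer than 56 bases. Capitals mark the ACA that lies 3 bases from the 3′ end, as in box H/ACA RNAs.
Snora73a (chr4:132352775-132352979, - strand): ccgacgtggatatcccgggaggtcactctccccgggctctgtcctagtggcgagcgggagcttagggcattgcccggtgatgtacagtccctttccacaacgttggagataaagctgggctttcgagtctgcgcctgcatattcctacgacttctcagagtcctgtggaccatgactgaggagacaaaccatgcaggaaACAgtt
Snora73b (chr4:132352322-132352526, - strand): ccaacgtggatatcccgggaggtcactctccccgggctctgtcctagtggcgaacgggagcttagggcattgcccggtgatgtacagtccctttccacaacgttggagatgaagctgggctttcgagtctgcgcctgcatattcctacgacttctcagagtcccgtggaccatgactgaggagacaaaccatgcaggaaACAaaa

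Snora73a and Snora73b varied more between libraries than their host. Snora73a was at 12.1 ± 2.20 CPM in 2% HS and 16.7 ± 5.76 CPM in SD, and with treatment at 25.1 ± 6.30 (MET), 21.5 ± 3.86 (LEU) and 19.5 ± 6.42 CPM (MET+LEU). Snora73b was at 21.5 ± 6.48, 31.1 ± 10.1, 40.8 ± 7.60, 36.2 ± 6.13 and 33.1 ± 10.1 CPM in the same order. Every group overlapped with SD. The log2 fold change in MET vs. SD was 0.58 for Snora73a (0.12 to 1.04, adjusted p = 0.356, edgeR) and 0.39 for Snora73b (-0.06 to 0.83, adjusted p = 0.581). Both rose in MET+LEU vs. 2% HS, by 0.69 (adjusted p = 0.0214) and 0.62 (adjusted p = 0.0297), in the comparison in which Snhg3 fell. Gm23201 in Zfas1 was at 3.60 ± 0.62 CPM in 2% HS and 2.18 ± 0.67 CPM in MET+LEU, a log2 fold change of -0.72 (-1.05 to -0.39, adjusted p = 0.000377, edgeR). MET+LEU replicate 6 held the lowest value, 0.89 CPM (11 counts), and the other MET+LEU libraries ranged from 2.14 to 2.71. The groups overlapped, since the lowest 2% HS library was at 2.40. In SD vs. 2% HS the log2 fold change was -0.39 (-0.71 to -0.07, adjusted p = 0.0609, edgeR). These counts cannot tell the mature snoRNA from host RNA around it. For Gm23201 and Snora73a, which overlap annotated host exons, that includes host exons as well as introns.

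**Figure D2:**
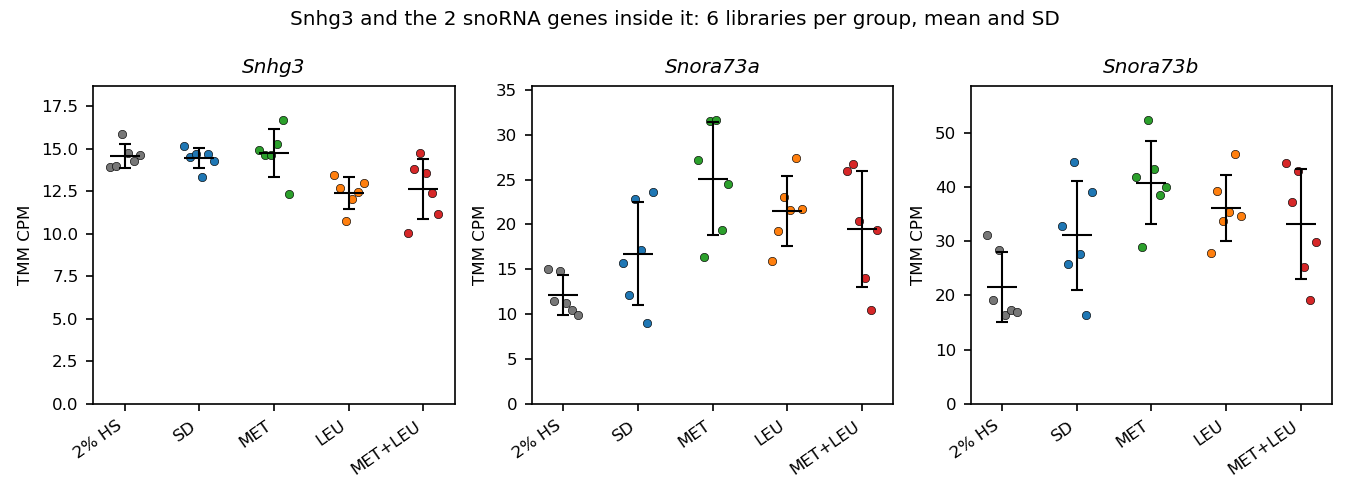
TMM CPM of Snhg3 and of the snoRNA genes Snora73a and Snora73b inside it, 6 libraries per group with mean and standard deviation. The libraries of each group span a wider range for the snoRNAs than for Snhg3, and all groups overlap with SD.

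Counted over the hosts, 2 of 8 were called higher and 0 lower in SD vs. 2% HS, beside 13.9% of all tested genes called higher and 13.9% called lower. In MET vs. SD, 1 of 8 was called higher beside 0.0754% of all genes and 0 lower beside 0.0817%. In LEU vs. SD, 0 of 8 were called (2 at an unadjusted p under 0.05, and 0 with DESeq2) beside 0.233% called higher and 0.321% lower. Without MET+LEU replicate 6, the shares of all genes called higher and lower were 0.698% and 0.308% in MET vs. SD and 1.06% and 0.635% in LEU vs. SD, with Snhg8 called in both. In MET+LEU vs. SD, 1 was called higher beside 10.6% and 0 lower beside 7.8%, and in MET+LEU vs. 2% HS, 1 was called higher beside 22.1% and 1 lower beside 20.3%. None of the 8 was called by edgeR in MET+LEU vs. LEU (1 at an unadjusted p under 0.05, background 6.28%), in MET+LEU vs. MET (2 at an unadjusted p under 0.05, background 8.69%) or in the interaction (0 at an unadjusted p under 0.05, background 0.0503%). DESeq2 called 0, 1 and 0 in these 3 comparisons. Since the hosts were picked with results in view, these counts are a description and are not read against the background as evidence.

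The listed ribosomal protein genes, which encode the protein part of the ribosome or are paralogs of such genes, were mostly called in 1 direction. Of 87 listed genes, 86 were tested. In SD vs. 2% HS, 10 of 86 rose (11.6%) and 2 fell, beside 13.9% of all tested genes called higher and 13.9% lower. In MET+LEU vs. SD, 32 of 86 rose (37.2%) and 1 fell, beside 10.6% called higher and 7.8% lower. In MET vs. SD 2 rose, namely Rpl17 and Rpl23a, beside 0.0754% of all tested genes. In LEU vs. SD 7 rose beside 0.233%, among them Rps12 by a log2 fold change of 0.27 (adjusted p = 0.0490, edgeR). A difference between the hosts and the ribosomal protein genes was not tested. The median log2 fold change of the ribosomal protein genes was 0.09 with deprivation, and relative to SD it was 0.09 with metformin, 0.08 with leucine and 0.13 with both. For the hosts the medians were 0.01, 0.06, -0.00 and -0.03 in the same order, and for all tested genes they lay between -0.01 and 0.00. With both agents vs. SD, 4 of 8 hosts and 59 of 86 ribosomal protein genes had a positive value.

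**Figure D3:**
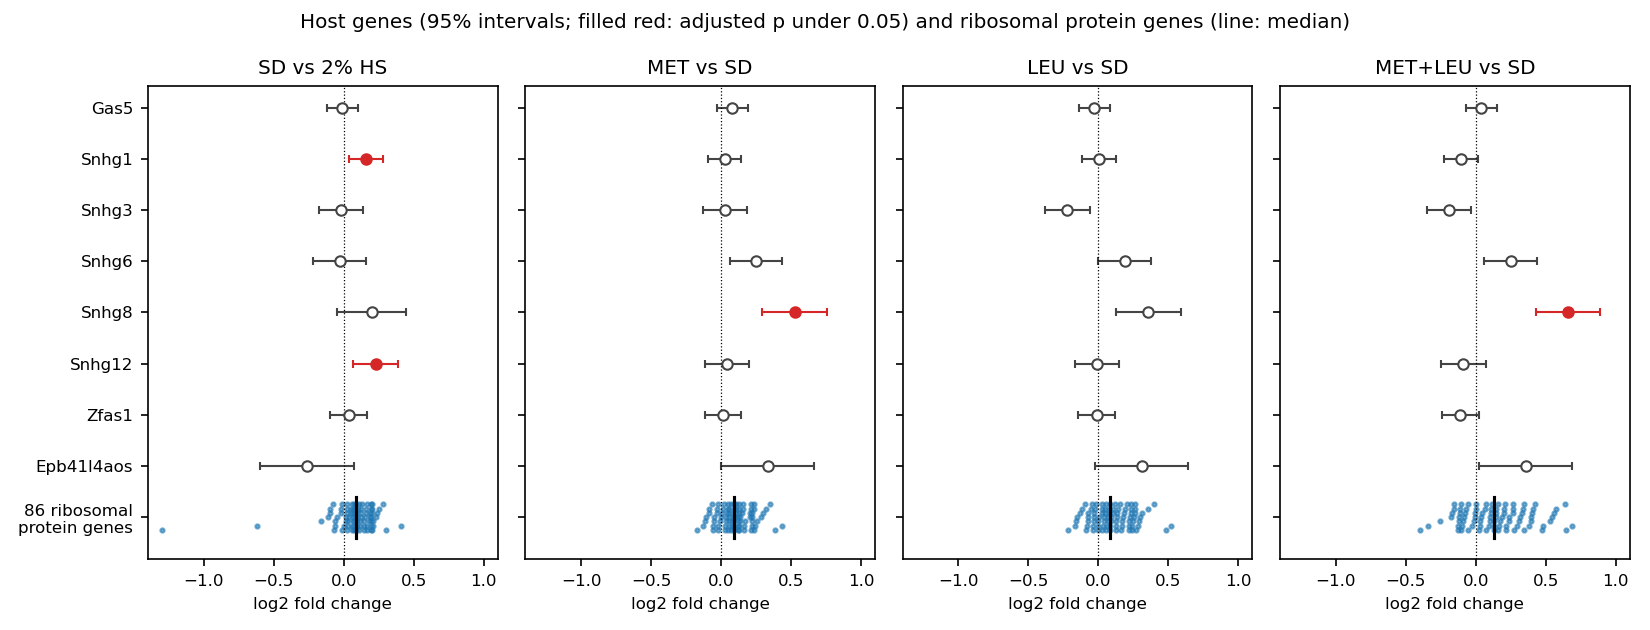
Log2 fold change of the 8 hosts with 95% intervals (filled red where the adjusted p is under 0.05) and of 86 ribosomal protein genes (blue points, with their median as a line) in 4 comparisons. Snhg8 lies near the upper end of the ribosomal protein values in MET+LEU vs. SD, whereas Gas5, Snhg1, Snhg3, Snhg12 and Zfas1 lie below their median of 0.13.

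Among the ribosomal protein genes that rose with both agents vs. SD were Rpl19 at 0.69 (adjusted p = 0.000131, edgeR) and Rpl36a at 0.64, with Rpl19 at 435 ± 126 CPM against 270 ± 19.2 in SD. Rpl22l1, a paralog of Rpl22, fell by 0.40 (adjusted p = 0.0338, edgeR). Without MET+LEU replicate 6, 32 rose and 0 fell. In SD vs. 2% HS the largest changes were those of Rpl26 at 0.41, Rpl11 at 0.21 and Rpl8 at 0.20, and of Rpl3l, a muscle paralog of Rpl3, at -1.30 and Rpl3 at -0.11. Of the ribosomal protein genes, 30 carry an annotated snoRNA on the same strand. With both agents vs. SD, 14 of these 30 rose with a median of 0.12, and 18 of the other 56 tested rose with a median of 0.13. A difference between the 2 kinds was not tested. Many ribosomal protein genes have near-identical processed copies, and how reads shared with them were counted is not given in the sources used here.

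Of 16 other non-coding hosts listed, 10 were tested. In MET+LEU vs. SD, 1 of these 10 rose and 2 fell, beside 10.6% of all tested genes called higher and 7.8% lower. In SD vs. 2% HS, 1 rose and 0 fell, beside 13.9% in each direction. Snhg5 rose in MET+LEU vs. SD by 0.26 (adjusted p = 0.0128, edgeR; 26.2 ± 4.23 against 21.8 ± 2.47 CPM), and Snhg17 fell by 0.19 (adjusted p = 0.0136) and Snhg20 by 0.44 (adjusted p = 0.0206). Without MET+LEU replicate 6, Snhg17 remained past the threshold (adjusted p = 0.0369), and Snhg5 (0.0830) and Snhg20 (0.0568) did not. With deprivation, 2410006H16Rik rose by 0.21 (adjusted p = 0.0456, edgeR). The other tested hosts, Snhg10, Snhg14, Snhg15, Snhg16, Snhg18 and Dancr, were not called in any of the 4 comparisons. The list's median in MET+LEU vs. SD was -0.13.

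Among 22 protein-coding hosts listed apart from the ribosomal protein genes, 9 rose and 3 fell in MET+LEU vs. SD (5 and 2 without replicate 6). The shares of all tested genes were 10.6% higher and 7.8% lower (7.65% and 6.02% without replicate 6). In SD vs. 2% HS, 2 rose and 3 fell, beside 13.9% in each direction. The largest rises in MET+LEU vs. SD were those of Ncl, which encodes nucleolin (0.37, adjusted p = 0.00521, edgeR, and 0.22 without replicate 6), Eef1b2, a translation elongation factor (0.31), and Dkc1, the pseudouridine synthase that works with box H/ACA snoRNAs (0.25), and the largest falls those of Tnpo2 (-0.22), Rack1 (-0.17) and Prrc2a (-0.14). Rack1 did not pass without replicate 6. With deprivation, Wdr43 (0.18) and Nop58 (0.15) rose and Hspa9 (-0.17), Tpt1 (-0.14) and Eif4a2 (-0.14) fell. Of 15 other TOP mRNAs, 6 rose and 0 fell in MET+LEU vs. SD, beside 10.6% and 7.8% of all tested genes. The rises were led by Nap1l1 (0.31), Npm1 (0.30) and Eef1d (0.29), with a list median of 0.13. With deprivation, Eef1g and Eef1d rose by 0.15 each, and Naca (-0.33) and Eef1a1 (-0.12) fell.

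Genes for proteins that build or accompany snoRNAs were called in 1 direction. Of 17 snoRNP and assembly genes, 5 rose and 0 fell in SD vs. 2% HS, beside 13.9% of all tested genes in each direction. In MET+LEU vs. SD, 7 rose and 0 fell, beside 10.6% and 7.8%. Without replicate 6, 2 rose, beside 7.65%. The assembly factor Znhit6 rose by 0.44 with deprivation (17.6 ± 1.46 against 12.9 ± 1.14 CPM, adjusted p = 3.78e-05, edgeR) and by a further 0.35 in MET+LEU vs. SD (22.5 ± 3.48 CPM, adjusted p = 0.00121). Znhit3 (0.43) and Ruvbl1 (0.26) also rose with deprivation, and Nhp2, a box H/ACA core protein, by 0.22 in MET+LEU vs. SD, a call lost without replicate 6. Dkc1 is counted in this list too.

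Factors of nonsense-mediated decay, the route by which spliced hosts are degraded, were called higher for 5 of 14 in SD vs. 2% HS. The share of all tested genes was 13.9%. In MET+LEU vs. SD, 3 of 14 were called higher, beside 10.6%, and 0 were called lower in either comparison. With deprivation, the exon junction proteins Magoh (0.25), Rbm8a (0.24) and Eif4a3 (0.20) rose. With both agents vs. SD, Upf3b (0.40, and 0.22 without replicate 6), Rbm8a (0.35) and Upf2 (0.24) rose, the last not without replicate 6, and the median of the list was -0.02. Of 6 mRNAs known as targets of this decay, Atf3 (-0.58) and Ddit3 (-0.46) fell in SD vs. 2% HS, beside 13.9% of all tested genes. Gadd45a rose (0.30) and Tbl2 (-0.20) and Atf4 (-0.14) fell in MET+LEU vs. SD, beside 10.6% called higher and 7.8% lower. These mRNAs also respond to stress signals, so their levels do not measure decay on their own.

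Some markers of the myotube and of myoblasts or cycling cells were called in these comparisons. Of 8 myotube markers, Ckm (-0.98), Myh1 (-0.39) and Ttn (-0.33) fell in SD vs. 2% HS, beside 13.9% of all tested genes called lower. In MET+LEU vs. SD, Tnnt3 (0.82), Myh1 (0.46) and Myh3 (0.36, and 0.21 without replicate 6) rose, beside 10.6% called higher, although the median of the 8 was -0.01. In LEU vs. SD, Myh1 rose (0.25), beside 0.233% called higher. The summed level of the 8 was 31432 to 33923 CPM in SD, and with treatment 28000 to 31866 (MET), 35017 to 36885 (LEU) and 30463 to 39732 CPM (MET+LEU). Ttn, with a median of 25861 CPM over all libraries, made up most of this sum. Of 6 myoblast and cycling markers, 4 fell in MET+LEU vs. SD, beside 7.8% of all tested genes, among them Ccnb1 (-0.89), Top2a (-0.64) and Cdk1 (-0.61). In LEU vs. SD 2 fell, beside 0.321%. Of the 6, only Pax7 was called in SD vs. 2% HS (-0.37), beside 13.9% of all tested genes called lower. The summed level was 316 to 357 CPM in SD, and with treatment 291 to 358 (MET), 292 to 330 (LEU) and 274 to 299.8 CPM (MET+LEU). Pax7, with a median of 153 CPM over all libraries, was the largest part of this sum. The share of unfused or cycling cells was not tested as a part of any host's change, and fewer cells of a type and less RNA per cell cannot be told apart in these bulk samples.

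Library by library, the hosts did not move as a unit. Over the 30 libraries, with each group's mean removed, the 28 pairs of hosts had correlations between -0.29 (Gas5 with Snhg3) and 0.60 (Gas5 with Snhg8), with a median of 0.13. Without MET+LEU replicate 6, Gas5 with Snhg8 was at 0.29, Snhg6 with Zfas1 at 0.55 and the median at 0.13. The libraries share scaling and composition, and these values are a description.

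The genes most like the hosts were ranked by Pearson's r over 30 libraries between their log2 CPM and the mean of the 8 hosts' standardized values, among the 12690 genes whose mean log2 CPM reached 1. The first 10 were n-R5-8s1, a 5.8S ribosomal RNA gene (r = 0.75), Hist2h2bb (0.75), Myl6 (0.74), Rtcb (0.74), Alyref (0.73), Ppa2 (0.73), Rrs1 (0.73), Rpl7l1 (0.73), Keap1 (0.73) and Tsr3 (0.72). Without MET+LEU replicate 6 their r was 0.67 to 0.76, and with group means removed 0.58 to 0.72. Of 84 ribosomal protein genes in the ranking, 42 were among the first 1269 and 73 had a positive r, with a median of 0.40 beside 0.01 for all ranked genes. With group means removed the median of the ribosomal protein genes was 0.28. They ranged from Rpl7l1, a paralog of Rpl7, at rank 8 to Rpsa at rank 12113 (r = -0.48). The libraries share groups, depth and composition, so this is likeness across these libraries only.

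**Figure D4:**
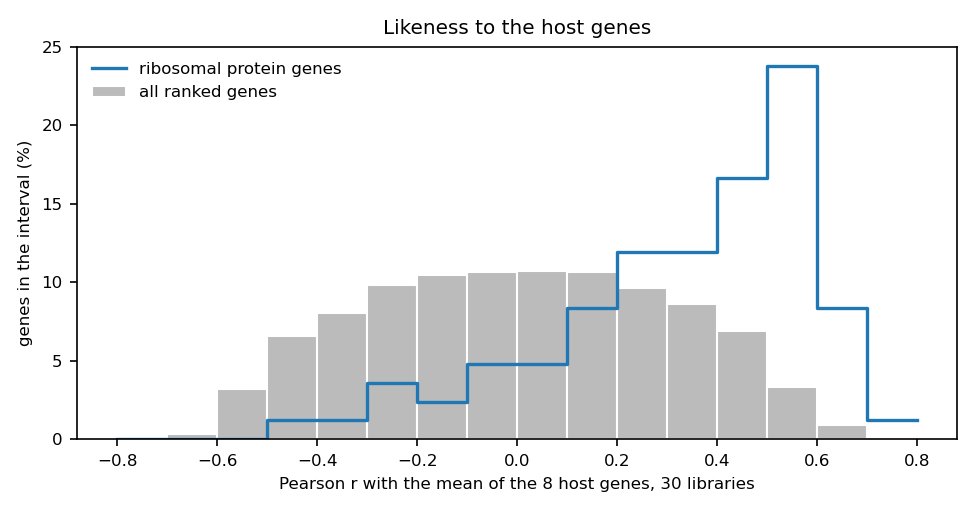
Share of genes (%) by Pearson's r with the mean standardized level of the 8 hosts over 30 libraries, in intervals of 0.1, for 12690 ranked genes (grey bars) and 84 ribosomal protein genes (blue line). The ribosomal protein genes have a median of 0.40 and all ranked genes a median of 0.01.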

How the data were processed

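Raw counts per gene of 30 rRNA-depleted, stranded libraries were used. The authors deposited counts made, per the labels' processing notes, with cutadapt 1.16, STAR 2.7.6a and featureCounts 1.6.3 on GRCm38. The annotation release, the strand setting and the treatment of reads with several matches are not given in the sources used here. The 8 hosts and all gene lists were chosen with earlier results of these data known. Counts were scaled by TMM and tested with edgeR 4.0.16 (quasi-likelihood, robust, R 4.3.3) over all 30 libraries, after filterByExpr (minimum count 10, minimum total count 15). Genes named per list and direction were up to 3, with the largest called changes, and any other named gene was chosen after its values were seen. The values of 1 gene that this rule names are not reported here. Log2 CPM for likeness used a prior count of 2. Alternatives were an adjusted p under 0.01, upper-quartile and DESeq2 1.42.0 scaling, DESeq2's test, limma 3.58.1 voom, other filters, only the groups compared, a replicate block and leaving out each library. Transcript starts and sequences came from GENCODE M21. The test was checked on simulated counts. The labels do not say that a number marks a shared culture, and numbers were not taken as pairs in the main fit. Same-numbered libraries of different groups had a mean correlation of 0.016. Since 11 of 30 libraries correlated best with their own number, this mean does not exclude a shared structure. Limits on counts of 0 cover counting error only.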

Additional observations from a re-analysis of the deposited data

Results flagged for a closer look

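Among 40 sets of 6 libraries (8 hosts in 5 groups), 5 held a library whose gap to the nearest other as a share of the whole range exceeded the 95% critical value of Dixon's test for 6 values, which chance passes in about 1 of 20 sets. Gas5 was at 86.5 CPM in MET+LEU replicate 6, against 59.2 to 66.0 in the other 5, and Snhg8 was at 17.01 CPM in the same library, against 8.71 to 11.5. That library also had the highest share of nuclear and mitochondrial ribosomal RNA. Snhg6 was at 9.01 CPM in MET+LEU replicate 5, against 10.6 to 11.5. Snhg1 was at 35.2 CPM in MET replicate 1, against 30.6 to 32.3. Snhg12 was at 16.6 CPM in 2% HS replicate 1, against 14.01 to 14.9.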

How the results depend on the processing

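Of 1212 values of single hosts under alternative settings, in SD vs. 2% HS and the 3 treated groups vs. SD, 1141 kept direction and side of the threshold, 33 fell below it, 6 passed it, 32 changed sign while not called, and 0 reversed a call. Snhg8 in MET+LEU vs. SD was called in all 38 settings (adjusted p 1.53e-06 to 0.0065). In MET vs. SD, DESeq2 gave no adjusted p for Snhg8 and so no count of hosts. At an adjusted p under 0.01, hosts called were 0 with deprivation, 0 in MET vs. SD and 1 in MET+LEU vs. 2% HS, and ribosomal protein genes 4 with deprivation, 0 with metformin and 1 with leucine. In SD vs. 2% HS, 1 host was called with upper-quartile scaling and with filters of more than 5 counts in total or at least 10 in every library. In MET+LEU vs. 2% HS, 1 was called with more than 5 counts in total and with only the groups compared. DESeq2 called 2 hosts in MET+LEU vs. SD, and in MET+LEU vs. MET 1 was called by DESeq2 and with upper-quartile scaling. Ribosomal protein genes called were 11 with DESeq2, 7 with voom and 4 with only the groups compared in MET vs. SD, and 19, 19 and 18 in LEU vs. SD. The cause was not tested.

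Leaving out each library in turn gave 0 to 2 hosts in SD vs. 2% HS, 0 to 1 in MET vs. SD, 0 to 1 in LEU vs. SD, 1 to 2 in MET+LEU vs. SD, 1 to 3 in MET+LEU vs. 2% HS (Snhg8 in each, Snhg3 lost without 2% HS replicate 3 and MET+LEU replicates 1 and 6, Snhg6 gained without 2% HS replicate 3, LEU replicate 6 and MET+LEU replicate 5) and 0 to 1 in MET+LEU vs. MET. It gave 7 to 26, 0 to 12, 2 to 20 and 29 to 34 ribosomal protein genes with deprivation and, relative to SD, with metformin, leucine or both. With a replicate block, 2, 1, 0 and 1 hosts and 13, 2, 7 and 34 ribosomal protein genes were called in the same order of comparisons, all within 1.5 times the values without it. Of 60 same-numbered pairs of libraries, 2 had a correlation over 0.1, and 11 of 30 libraries correlated best with their own number. Counts of 32 to 70 limit Epb41l4aos most.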
